A study of Homo sapiens with 10 samples.

Results

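Polyadenylated RNA from HEK293FT cells given the guide labelled P4P6 was compared with RNA from cells given the guide labelled TOP1. The comparison covers every feature with a gene name and a mean of at least 1 FPKM (fragments per kilobase of transcript, scaled to the fragments of each library) over all 10 libraries. That gave 11574 of 20246 features, of which 11570 are endogenous and 4 are construct transcripts, while 7727 named features lay below the limit. Just inside it were ZNF785, IRX6 and KIAA1257, and just outside GABRD, the immunoglobulin locus feature IGL@ and SYT17.

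HEK293FT is a human embryonic kidney line that takes up plasmids readily. The cells of all groups carried lentivirally integrated Gaussia and Cypridina luciferase reporter genes, and 125000 cells per well received 59 ng of plasmid for dCas9-VP64 at 1 day after plating. The P4P6 and TOP1 groups also received 11.6 ng of a plasmid for the named guide, which targets the Gaussia reporter. Carrier plasmid came to 679.4 ng and Lipofectamine to 2.25 uL, and RNA was taken 3 days later. The 3 other groups used here had no guide beside dCas9-VP64 (CasVP) or the guides labelled sgRNA and INT. Each of the 5 groups has 2 libraries, and the labels do not say whether these came from separate cultures, so the p-values measure only the spread between these libraries. The value columns carry an index of 0 or 1 that was not matched to the replicate numbers in the labels, and libraries are called here by group and index. An exact permutation test of 2 libraries against 2 cannot go below p = 0.33.

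dCas9 is a Cas9 protein that binds DNA at the site given by its guide RNA but does not cut it, and VP64 is a transcriptional activation domain, so that a guide to a promoter can raise the RNA of that gene. CRISPR Display is a method in which the guide is extended with a further RNA, which dCas9 then carries to the same site. The labels call the guides modified but do not say which RNA P4P6 or TOP1 carries, nor whether the name TOP1 refers to the gene for DNA topoisomerase I, which has the same symbol.

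The guide transcripts were checked against the labels first. The P4P6 guide feature was listed at 0.440 and 0.761 FPKM in the P4P6 libraries and at 0 in the 8 others. The TOP1 guide feature was listed at 0.331 and 0.441 FPKM in the TOP1 libraries and at 0 elsewhere. The feature of the guide labelled sgRNA, however, was listed at 109 FPKM in P4P6 replicate 0, at 0 in P4P6 replicate 1 and both TOP1 libraries, and at 233 and 0 in the sgRNA libraries. P4P6 replicate 0 also stood apart for ELOVL5, a fatty acid elongase, with 349 FPKM against 55.5 in P4P6 replicate 1 and 62.6 and 57.6 in the TOP1 libraries. The counts of called list members are therefore given below with and without that library. The part of these features in the other results was not tested.

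Depth estimated from the smallest steps of low FPKM values was about 19100000 and 21900000 fragments in the P4P6 libraries, 28000000 and 20300000 in the TOP1 libraries, and between those extremes in all 10. Summed FPKM was 553565 and 535756 with P4P6 and 612551 and 601679 with TOP1, while the upper quartile was 17.4 or 17.5 FPKM in each of the 4 libraries. Of 25 markers of other cell types, 3 passed the limit of 1 FPKM, 8 to 11 were listed at 0 in each library, and their summed level ran from 15.6 to 22.7 FPKM, most of it ACTA2. The SD of the log2 difference between the 2 libraries of a group was 0.188 for P4P6, 0.138 for TOP1 and 0.104 to 0.141 for the other groups.

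The Gaussia reporter, the target of both guides, was lower with P4P6 than with TOP1. Its transcript was measured at 189 and 163 FPKM with P4P6 (176 ± 18.5, SD, n = 2) and at 257 and 273 with TOP1 (265 ± 11.2, SD, n = 2), against 23.8 and 22.7 without a guide and 787 and 857 with the sgRNA guide. Both P4P6 libraries lay below both TOP1 libraries, and all 4 lay above the CasVP and below the sgRNA and INT libraries. The P4P6 level was 0.663 of the TOP1 level, a difference of -0.59 on the log2(FPKM + 1) scale (95% interval -0.75 to -0.43, SE 0.0713, adjusted p = 0.0095, limma with Benjamini-Hochberg adjustment over all 11574 features). The call was kept without each of the 4 libraries in turn, with adjusted p from 0.00487 to 0.0436.

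The transcript of dCas9-VP64 was at 17.1 and 20.1 FPKM with P4P6 and 16.1 and 17.1 with TOP1, with no overlap, and the difference of 0.15 (SE 0.0695, adjusted p = 0.141) did not pass. The Cypridina reporter, which no guide targets, was at 1.54 and 1.71 FPKM with P4P6 and 1.14 and 1.01 with TOP1. It too showed no overlap, with a difference of 0.34 (95% interval 0.081 to 0.60, adjusted p = 0.064) that did not pass. Divided by dCas9-VP64, Gaussia was 11.02 and 8.10 with P4P6 and 16.0 and 15.9 with TOP1, and divided by Cypridina it was 122 and 94.8 with P4P6 and 225 and 270.1 with TOP1. Both ratios were thus lower in each P4P6 library than in each TOP1 library. The gene TOP1 was at 48.2 and 53.8 FPKM with P4P6 and 50.5 and 52.9 with TOP1, with a difference of -0.02 (SE 0.056, adjusted p = 0.821).

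Among endogenous genes the differences were many and, on the log2(FPKM + 1) scale, mostly small. Of the features tested, 2318 (20%) passed an adjusted p of 0.05, of which 996 (8.61%) were higher with P4P6 and 1322 (11.4%), Gaussia included, were lower. The median difference was 0.29 among the higher and -0.24 among the lower features. On that scale 16 called features passed 1.5-fold (a difference of 0.585) and only AFF1 passed 2-fold. For 96.2% of tested features the 95% interval lay within 1.5-fold either way on the same scale. The pseudocount of 1 makes these differences smaller than the ratio of FPKM for low features, such as IFI27 and ATP1B2 below. Features called lower were the more abundant, with a median level of 56.2 FPKM against 12.7 for those called higher and 14.4 for all tested. P4P6 and TOP1 libraries were fully separate in level for 6943 features (60.0%), with P4P6 above in 3184 (27.5%) and below in 3759 (32.5%). All 2318 called features were among these. A lack of overlap, where given below for a called gene, therefore describes its values and adds no support to the call.

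These counts rest on the spread shared by all 5 groups and on single libraries. A fit to the 4 P4P6 and TOP1 libraries alone called 1 feature, AFF1, with 3230 at an unadjusted p under 0.05 against 4235 in the fit to all libraries. There were 2760 calls without P4P6 replicate 0, 1269 without P4P6 replicate 1, 359 without TOP1 replicate 0 and 606 without TOP1 replicate 1. The direction also depended on the scaling, with 43.0% of calls higher as deposited and 64.9% of 1182 calls higher after quantile normalization.

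**Figure D1:**
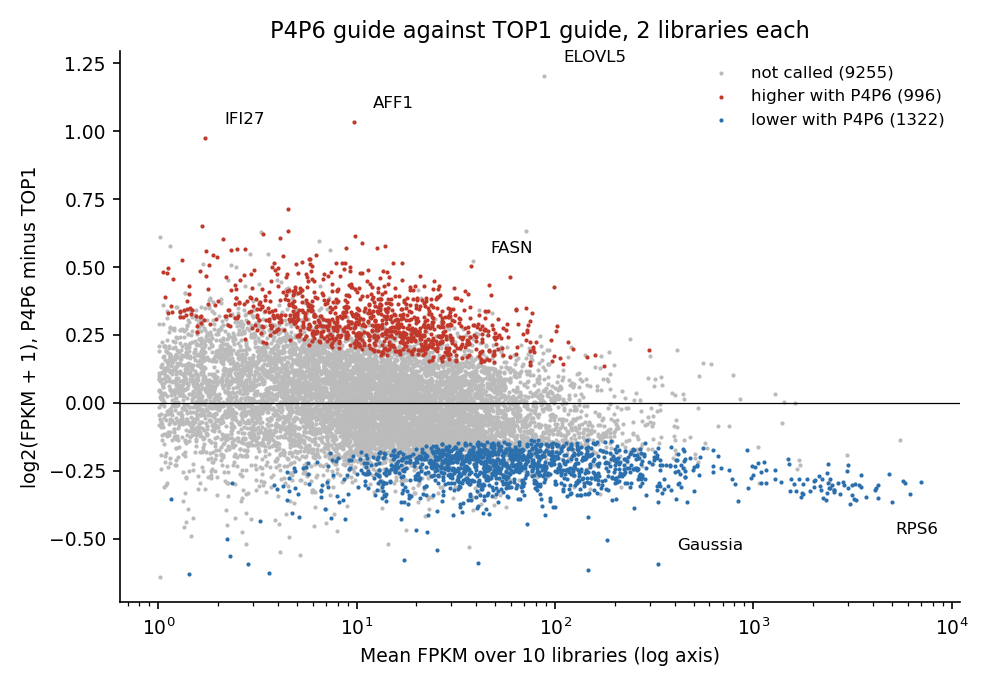
Difference between P4P6 and TOP1 on the log2(FPKM + 1) scale (vertical) against the mean FPKM of 10 libraries (horizontal, log axis). Each point is 1 feature, in red where called higher with P4P6 (996), in blue where called lower (1322) and in grey where not called; the sgRNA guide feature, at 3.39 and not called, is beyond the axis. The blue points reach further to the right, to more abundant features, than the red.

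The endogenous genes with the smallest p-values included FASN, ATXN2L, POLR2A, MLL2 and HCFC1, each higher with P4P6. FASN, the fatty acid synthase, was at 46.6 and 47.0 FPKM with P4P6 and 33.6 and 32.0 with TOP1, a difference of 0.50 (SE 0.046, adjusted p = 0.0076). POLR2A, the largest subunit of RNA polymerase II, was at 55.9 and 54.0 FPKM with P4P6 and 41.4 and 41.6 with TOP1, a difference of 0.40 (SE 0.0441, adjusted p = 0.0095). Its P4P6 libraries lay above all 8 others, and both TOP1 libraries below all others. ATXN2L, an RNA-binding protein related to ataxin, was at 68.7 and 72.7 FPKM with P4P6 and 52.3 and 49.9 with TOP1, a difference of 0.46 (SE 0.049, adjusted p = 0.0095). HCFC1, a chromatin-associated cofactor, was at 29.1 and 29.8 FPKM with P4P6 and 22.7 and 22.1 with TOP1, a difference of 0.38 (SE 0.0452, adjusted p = 0.0095). The 4 genes showed no overlap between groups. With trends in transcript length and GC content removed, the difference was 0.20 for FASN, 0.25 for POLR2A, 0.29 for ATXN2L and 0.13 for HCFC1. HCFC1 lost the call in that fit (limma adjusted p = 0.118), and the others kept it. In bulk RNA, a change in the share of some cells and a change of RNA per cell cannot be told apart, here or below.

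Genes of chromatin regulation were called in the upward direction only. Of 37 tested members of the list, 18 were higher (8.61% of all features were) and 0 lower, with a median of 0.24 against -0.014 over all features. DOT1L, a histone methyltransferase, was at 13.5 and 14.4 FPKM with P4P6 and 9.93 and 8.06 with TOP1, a difference of 0.59 (SE 0.0944, adjusted p = 0.0101). Its P4P6 libraries were above every other library of the series. With the length and GC trends removed DOT1L differed by 0.34 and did not pass (limma adjusted p = 0.0604). MLL2, a methyltransferase of histone H3, was at 16.2 and 16.9 FPKM with P4P6 and 11.2 and 11.9 with TOP1, a difference of 0.48 (SE 0.055, adjusted p = 0.0095). CREBBP, a histone acetyltransferase, was at 22.8 and 22.5 FPKM with P4P6 and 16.6 and 16.9 with TOP1, a difference of 0.41 (SE 0.0505, adjusted p = 0.0095). Its close relative EP300 (difference 0.39), the remodelling subunit ARID1A (0.34) and the remodelling ATPase SMARCA4 (0.28) were also called higher.

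Averaged over the list, the deviation from each gene's mean was 0.12 and 0.15 in the P4P6 libraries and -0.10 and -0.094 in the TOP1 libraries. Higher calls numbered 22 without P4P6 replicate 0, 14 without P4P6 replicate 1, 11 without TOP1 replicate 0 and 11 without TOP1 replicate 1. They numbered 17 after quantile normalization and 3, with a median of 0.12, once trends with transcript length and GC content were removed. Of the 37 members 36 had a matched transcript. MLL2 had none, so its difference of 0.48 and its call were not open to that removal. The longest transcripts of these genes had a median of 7639 bases and 53.6% GC, against 3788 bases and 47.9% GC over all features. Whether length and GC account for the direction of the list was not tested.

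**Figure D2:**
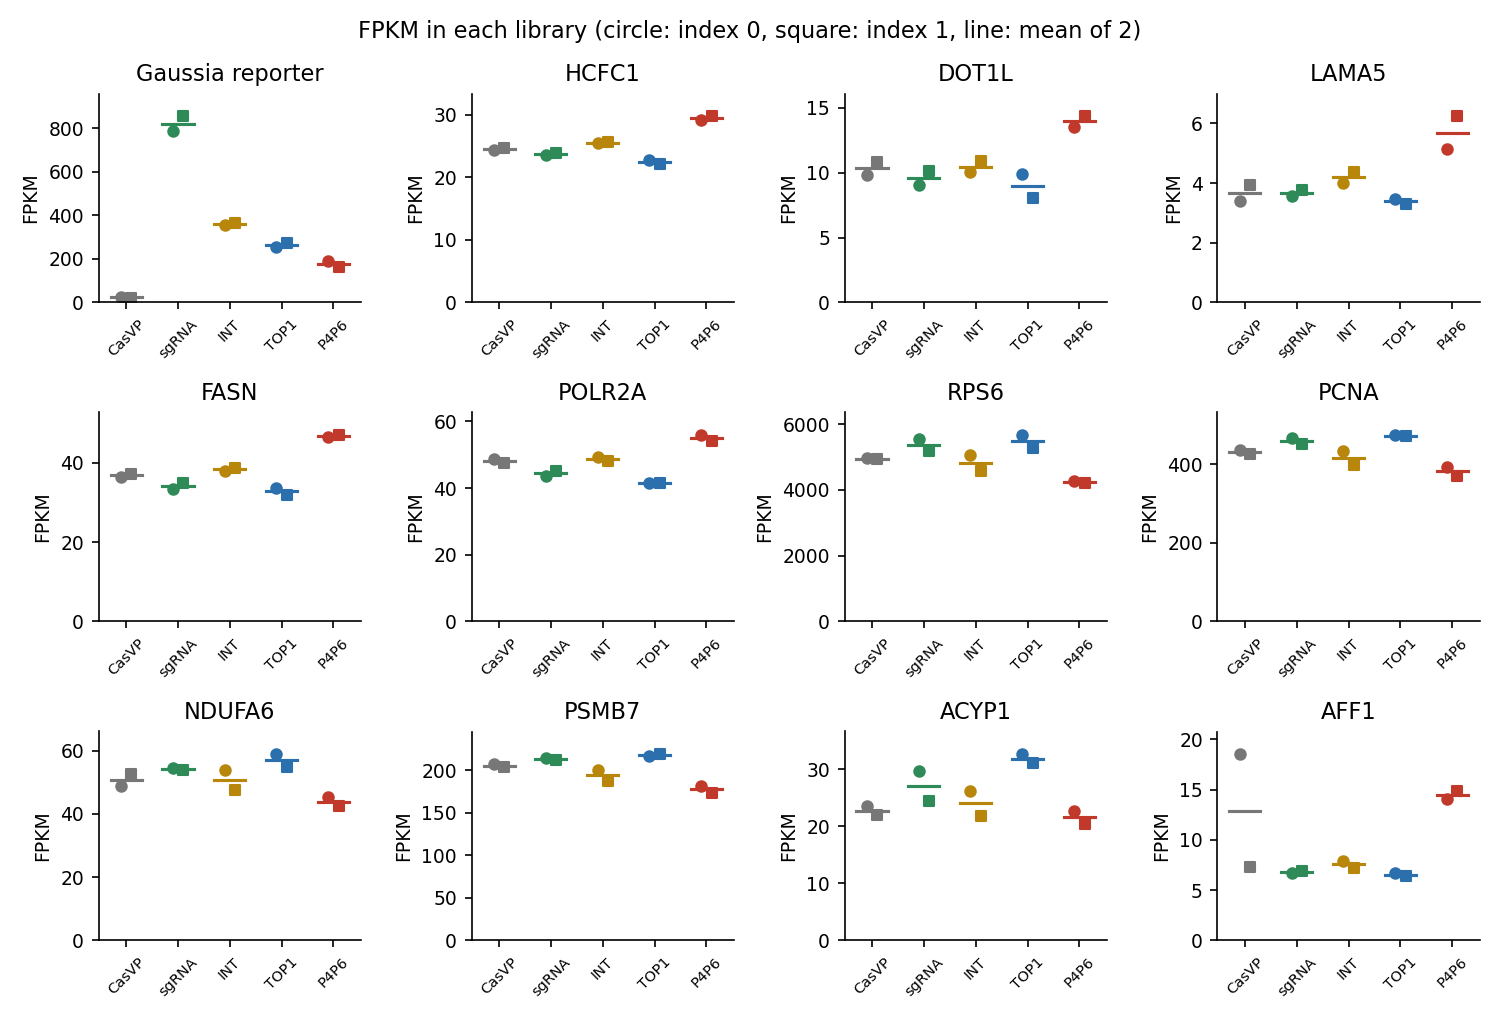
FPKM (vertical, from 0) of 12 transcripts in each library, by group (horizontal), with a circle for index 0, a square for index 1 and a line at the mean of 2 libraries. In the Gaussia panel the P4P6 libraries lie below the TOP1 libraries; in the panels of HCFC1, DOT1L, LAMA5, FASN and POLR2A they lie above all others; in the AFF1 panel 1 CasVP library is the highest of the 10.

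Called genes differed in the length and base composition of their transcripts. Genes called higher had a longest annotated transcript of 4728 bases and 58.5% GC at the median, genes called lower 2591 bases and 43.1% GC, and genes not called 3850.5 bases and 47.7% GC. Among the 5 equal classes of GC content, the class with least GC had 0.318% of genes called higher and 17.9% called lower, and the class with most GC had 22.9% higher and 1.59% lower. Among 5 classes of length, the shortest had 3.36% higher and 23.2% lower and the longest 12.6% and 4.95%. The extremes combined were further apart: of 183 short transcripts with least GC, 51.4% were called lower and 0 higher, while of 139 long ones with most GC, 56.1% were called higher and 0 lower. Genes of the class with most GC lay above their average over 10 libraries in both P4P6 libraries and below it in both TOP1 libraries, and those of the class with least GC did the opposite. What part length and base composition have in the calls was not tested beyond the removal of their trends.

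**Figure D3:**
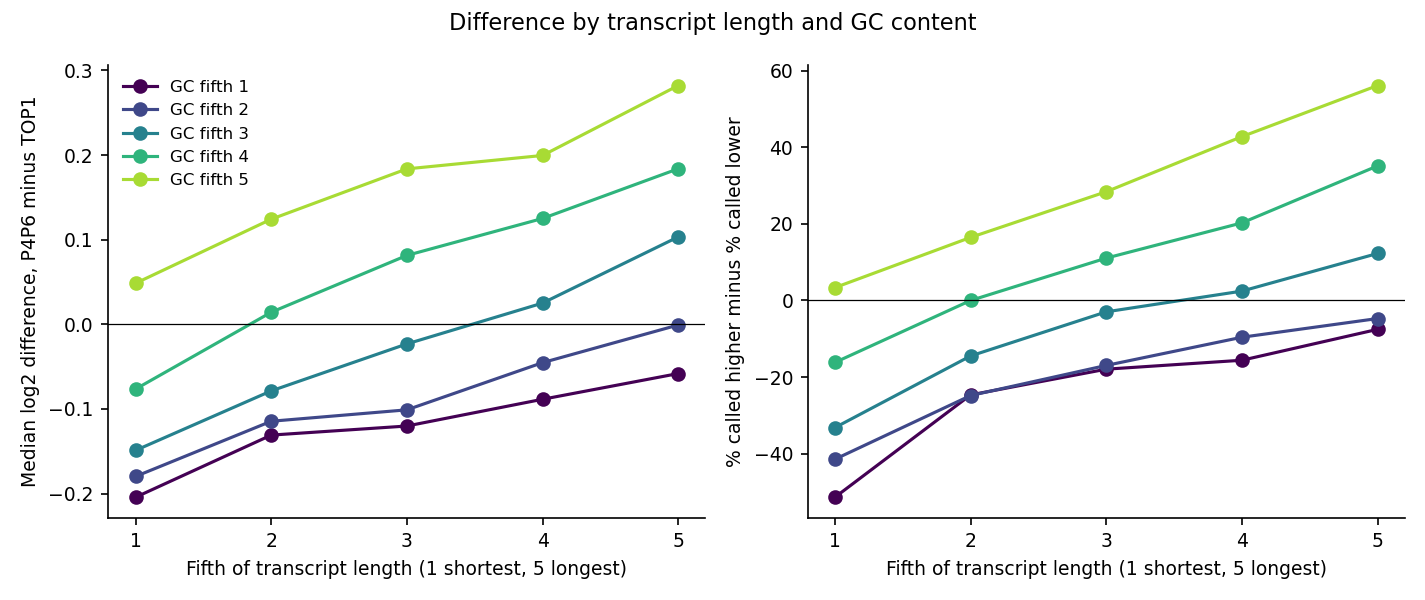
Left, median log2 difference between P4P6 and TOP1 (vertical) by class of transcript length (horizontal, 1 shortest to 5 longest), 1 line for each of 5 classes of GC content; right, the percentage called higher minus the percentage called lower, by the same classes. Each line climbs from short to long on the left, from -0.20 for short transcripts with least GC to 0.28 for long ones with most GC.

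**Figure D4:**
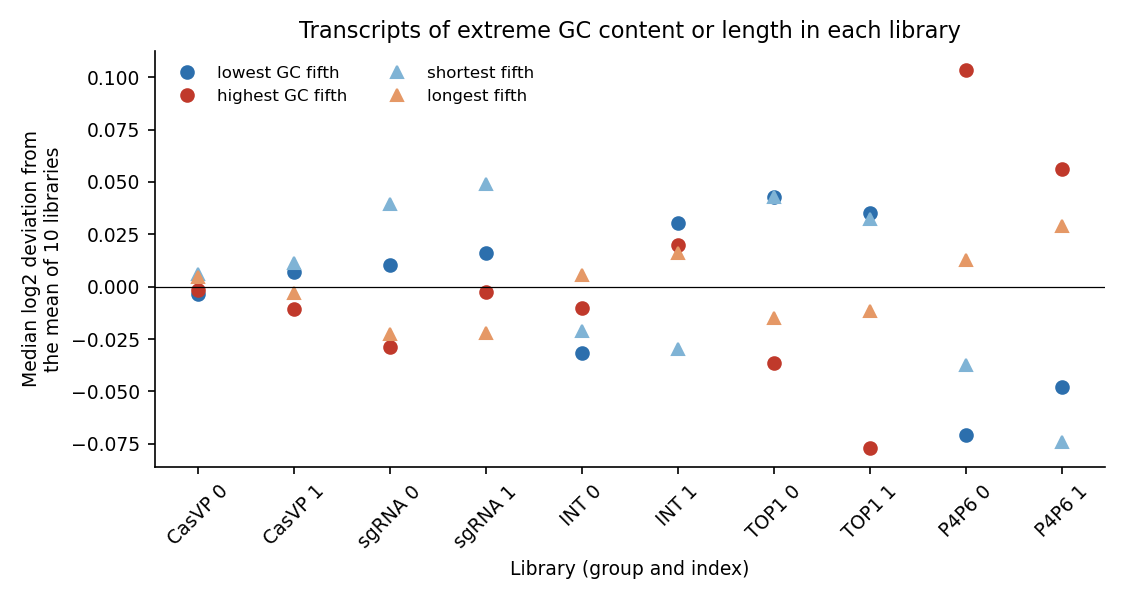
Median deviation of log2(FPKM + 1) from the mean of 10 libraries (vertical) in each library (horizontal), for the classes of lowest and highest GC (circles) and of shortest and longest transcripts (triangles). The highest GC class is at 0.10 and 0.056 in the P4P6 libraries and at -0.036 and -0.077 in the TOP1 libraries.

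When the trends with length and GC were both removed, 273 features were called, 110 higher and 163 lower, and 238 of these were among the 2318. Calls present in the fit to all libraries and in each of the 4 fits without a P4P6 or TOP1 library numbered 162, with 104 higher and 58 lower. Of those, 44 were also called after quantile normalization and with both trends removed, and 37 of the 44 had a matched transcript, so that the removal applied to them. The following examples were chosen from these 37 after their values were seen. CC2D1A was at 17.0 and 17.5 FPKM with P4P6 and 12.7 and 12.3 with TOP1, a difference of 0.44 (SE 0.0578, adjusted p = 0.0095). The nuclear receptor coactivator NCOA6 was at 15.1 and 16.3 FPKM with P4P6 and 10.5 and 11.8 with TOP1, a difference of 0.46 (SE 0.0724, adjusted p = 0.0101). Among the lower genes, TSG101, a subunit of the endosomal sorting machinery, was at 38.1 and 37.1 FPKM with P4P6 and 47.6 and 48.4 with TOP1, a difference of -0.34 (SE 0.0449, adjusted p = 0.0095). APOC1, an apolipoprotein, was at 36.0 and 34.7 FPKM with P4P6 and 48.2 and 46.1 with TOP1, a difference of -0.41 (SE 0.0566, adjusted p = 0.0101). The 4 genes showed no overlap. With both trends removed the differences were 0.25 for CC2D1A, 0.39 for NCOA6, -0.20 for TSG101 and -0.25 for APOC1. Their limma adjusted p ran from 0.0428 to 0.049 in that fit, near the threshold of 0.05.

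Genes of basement membranes and matrix and of Notch signalling held several of the larger differences. Of 18 tested matrix genes, 7 (38.9%) were higher and 0 lower with P4P6 (median 0.17), against 8.61% and 11.4% of all features. LAMA5, a laminin chain, was at 5.14 and 6.25 FPKM with P4P6 and 3.47 and 3.30 with TOP1, a difference of 0.61 (SE 0.0957, adjusted p = 0.0101). AGRN, the proteoglycan agrin, was at 11.3 and 11.5 FPKM with P4P6 and 8.46 and 6.38 with TOP1, a difference of 0.57 (SE 0.113, adjusted p = 0.0127). In both genes, P4P6 lay above all other libraries. COL18A1, a collagen chain, was at 15.7 and 16.6 FPKM with P4P6 and 14.1 and 11.6 with TOP1, a difference of 0.32 (SE 0.0889, adjusted p = 0.0322), and HSPG2, perlecan, at 1.99 and 2.09 FPKM with P4P6 and 1.35 and 1.64 with TOP1, with 0.29 (SE 0.104, adjusted p = 0.0754), did not pass. Matrix genes called higher numbered 7 without P4P6 replicate 0, 4 without P4P6 replicate 1, 4 without TOP1 replicate 0 and 1 without TOP1 replicate 1, and 0 with the length and GC trends removed.

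In the Notch and helix-loop-helix list, 3 of 18 tested members (16.7%) were higher and 1, ID4, lower (5.56%), against 8.61% and 11.4% of all features. The higher count was 3 without P4P6 replicate 0, 2 without P4P6 replicate 1, 2 without TOP1 replicate 0 and 1 without TOP1 replicate 1. The ligand JAG2 was at 10.5 and 9.99 FPKM with P4P6 and 7.91 and 6.40 with TOP1, a difference of 0.47 (SE 0.103, adjusted p = 0.0157). The receptor NOTCH3 was at 6.55 and 8.12 FPKM with P4P6 and 4.55 and 4.96 with TOP1, a difference of 0.53 (SE 0.123, adjusted p = 0.0183), and the receptor NOTCH2 at 17.2 and 17.9 FPKM with P4P6 and 13.6 and 14.1 with TOP1, a difference of 0.32 (SE 0.0552, adjusted p = 0.0101). The ligand and both receptors were higher in each P4P6 library than in each TOP1 library, while HEYL, a transcriptional repressor induced by Notch, at 2.48 and 2.2 FPKM with P4P6 and 1.97 and 1.46 with TOP1 and 0.30 (SE 0.115, adjusted p = 0.0878), did not pass. Of the 6 matrix and Notch genes called and given with values here, the call was lost for 2 without TOP1 replicate 0, 4 without TOP1 replicate 1 and 2 without P4P6 replicate 1 (adjusted p up to 0.185), and 6 lost it with the length and GC trends removed.

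**Figure D5:**
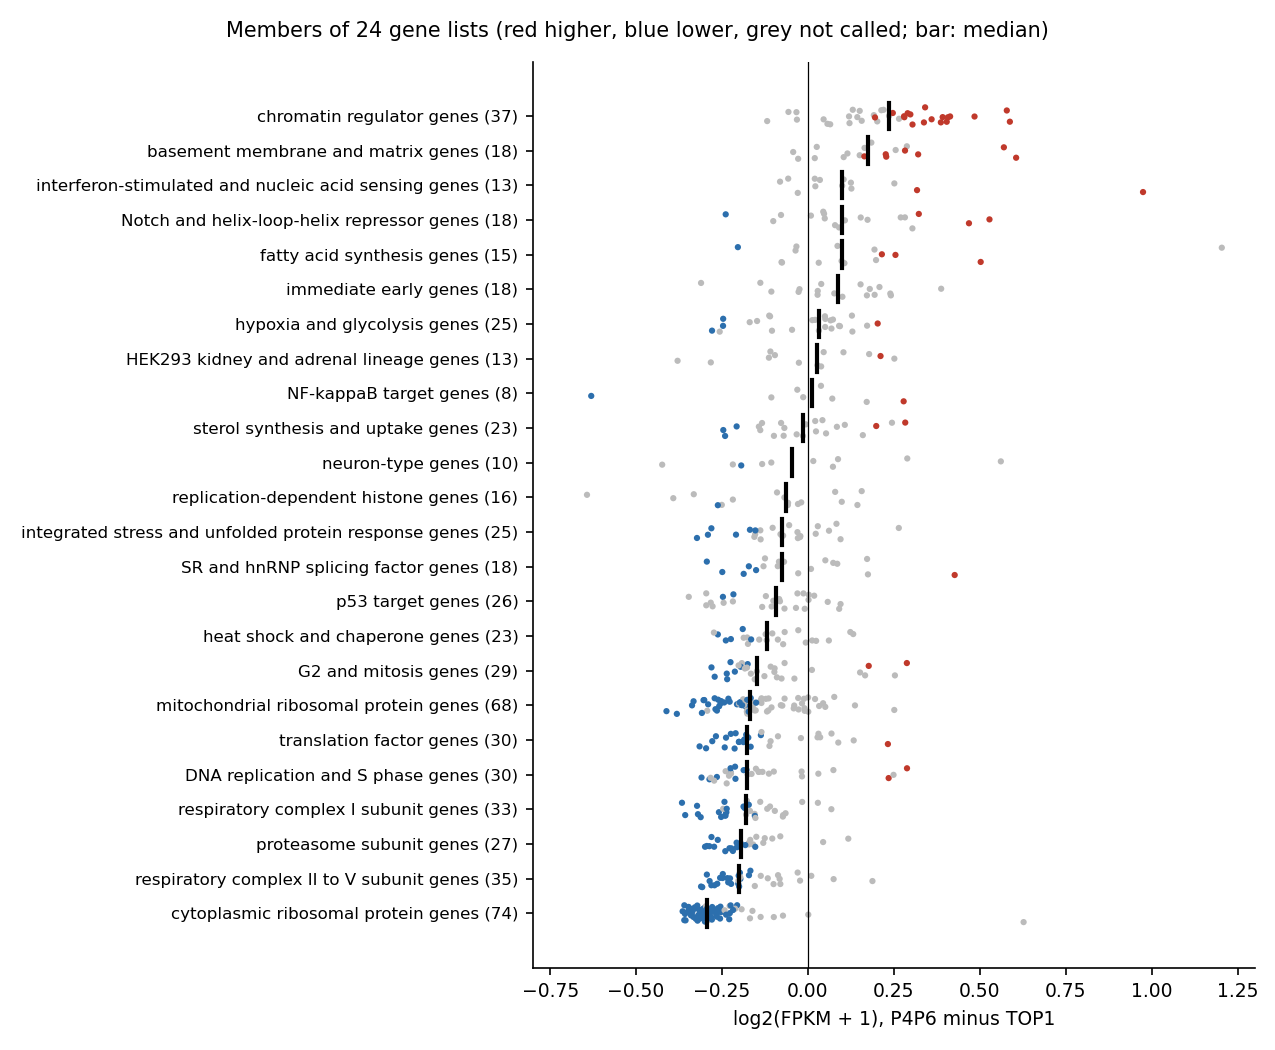
Difference between P4P6 and TOP1 on the log2(FPKM + 1) scale (horizontal) for the tested members of 24 gene lists (vertical, with the number tested), red where called higher, blue where called lower, grey where not called, with a black bar at the median. The chromatin list has the highest median (0.24) and the cytoplasmic ribosomal protein list the lowest (-0.29); the vertical place of a point within a list is random.

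Cytoplasmic ribosomal protein genes, whose products build the ribosome, were lower with P4P6 as deposited. Of 74 tested features, 61 were lower and 0 higher, against 11.4% and 8.61% of all features, with a median of -0.29, but after quantile normalization 0 were called and the median was -0.014. Lower calls numbered 65 without P4P6 replicate 0, 30 without P4P6 replicate 1, 2 without TOP1 replicate 0 and 22 without TOP1 replicate 1, and 17 with the length and GC trends removed. The member with the largest difference was higher with P4P6, at 0.63, and was not called. The average deviation of the list was -0.12 and -0.22 in the P4P6 libraries and 0.10 and 0.092 in the TOP1 libraries. Reads of these genes can be split with near-identical processed copies, and how the authors' counting treated them is not given in the sources used here.

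Many mRNAs of the translation machinery begin with a cytosine followed by a run of pyrimidines, the terminal oligopyrimidine motif. The 40 bases around the RefSeq start (20 each side, build GRCh38.p14, 5′ to 3′ on the strand of the gene) are shown for the ribosomal protein and translation factor genes with the largest differences, with capitals for the letters CTTTC.
RPS6, chr9:19380217-19380256, minus strand: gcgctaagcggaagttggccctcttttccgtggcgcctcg
FAU, chr11:65122115-65122154, minus strand: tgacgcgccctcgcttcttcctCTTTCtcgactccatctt
RPL12, chr9:127451387-127451426, minus strand: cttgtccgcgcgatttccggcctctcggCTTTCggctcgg
EEF1B2, chr2:206159589-206159628, plus strand: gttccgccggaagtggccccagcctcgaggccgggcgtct
EIF3M, chr11:32583811-32583850, plus strand: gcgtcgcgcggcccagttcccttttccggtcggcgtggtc
EIF1AX, chrX:20141819-20141858, minus strand: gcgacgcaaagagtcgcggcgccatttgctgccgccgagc
CTTTC was found on the strand of the gene in FAU (from base 3 after the start) and RPL12 (from base 9) and not in the other 4 windows. It was present in 29 of the 57 ribosomal protein genes that matched a RefSeq promoter, of 71 in all (50.9% of those matched), and on either strand in the same number, against 5.35% on the strand of the gene and 9.47% on either strand of all 27305 promoters. Of 61 mitochondrial ribosomal protein genes, whose products work in another compartment, 2 (3.28%) held it, and of 22 translation factor genes 1 (4.55%). A match describes the letters in this window only, wherever they lie in it, and does not score the terminal oligopyrimidine motif. In RPS6 and EIF3M a cytosine followed by pyrimidines stands directly after the start without being counted as CTTTC. The shares above count the letters in the same way.

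RPS6, a protein of the small subunit, was at 4273 and 4224 FPKM with P4P6 and 5675 and 5274 with TOP1, a difference of -0.36 (SE 0.0708, adjusted p = 0.0122). FAU, which encodes a fusion of a ubiquitin-like protein with a small-subunit protein, was at 765 and 678 FPKM with P4P6 and 928 and 920.3 with TOP1, a difference of -0.36 (SE 0.0623, adjusted p = 0.0101). RPL12, of the large subunit, was at 2132 and 1830.3 FPKM with P4P6 and 2576 and 2494 with TOP1, a difference of -0.36 (SE 0.0848, adjusted p = 0.019). In each, both P4P6 libraries lay below both TOP1 libraries. All 3 lost the call after quantile normalization, and 2 lost it with the length and GC trends removed. Among these 3 called genes, the call was lost for 3 without TOP1 replicate 0, 1 without TOP1 replicate 1 and 1 without P4P6 replicate 1 (adjusted p up to 0.0957).

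Among 30 translation factor features, 18 (60%) were lower and 1 (3.33%) higher with P4P6 (median -0.18), against 11.4% and 8.61% of all features. After quantile normalization, however, 1 was lower and 6 were higher. Lower calls numbered 14 without P4P6 replicate 0, 6 without P4P6 replicate 1, 0 without TOP1 replicate 0 and 4 without TOP1 replicate 1, and 3 with the length and GC trends removed. EEF1B2, an exchange factor of elongation, was at 861 and 763 FPKM with P4P6 and 1018 and 999 with TOP1, a difference of -0.32 (SE 0.0673, adjusted p = 0.015). The initiation factor subunit EIF3M was at 204 and 192 FPKM with P4P6 and 251 and 236 with TOP1, a difference of -0.30 (SE 0.0634, adjusted p = 0.015), and its partner EIF3E at 475 and 480.0 FPKM with P4P6 and 585 and 566 with TOP1, a difference of -0.27 (SE 0.0515, adjusted p = 0.0119). EIF1AX, which acts in start codon scanning, was at 104 and 94.9 FPKM with P4P6 and 127 and 115 with TOP1, a difference of -0.28 (SE 0.0603, adjusted p = 0.0153). No P4P6 library overlapped a TOP1 library for these genes. The member called higher was EIF4G1, the scaffold of the cap-binding complex, with a difference of 0.23 (adjusted p = 0.0101). Of the 4 lower genes with values, the call was lost for 4 without TOP1 replicate 0, 1 without TOP1 replicate 1 and 3 without P4P6 replicate 1 (adjusted p up to 0.0938), and 4 lost it with the length and GC trends removed.

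Nuclear genes of mitochondrial translation and respiration were called lower and in no case higher. Of 68 mitochondrial ribosomal protein genes, 28 were lower (median -0.17), and of 33 complex I subunits 17 (median -0.18). Of 35 subunits of complexes II to V, 21 were lower (median -0.20). The shares were 41.2%, 51.5% and 60%, against 11.4% of all features called lower. After quantile normalization the lower calls were 4, 5 and 2, with medians of -0.093, -0.084 and -0.05. Lower calls in the same order numbered 1, 4 and 3 without TOP1 replicate 0, 35, 17 and 17 without P4P6 replicate 0, 8, 7 and 7 without TOP1 replicate 1, and 11, 17 and 17 without P4P6 replicate 1. With the length and GC trends removed they were 3, 1 and 2. The median transcript was 1333 bases and 47.6% GC for complex I and 1712 bases and 47.7% GC for the mitochondrial ribosome.

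Of the mitochondrial ribosome, MRPS23 was at 74.5 and 70.9 FPKM with P4P6 and 95.7 and 94.4 with TOP1, a difference of -0.38 (SE 0.0519, adjusted p = 0.0101). MRPL24 was at 81.2 and 63.7 FPKM with P4P6 and 100.5 and 91.7 with TOP1, a difference of -0.41 (SE 0.102, adjusted p = 0.0217), and MRPL21 at 111.6 and 99.3 FPKM with P4P6 and 132 and 134 with TOP1, a difference of -0.33 (SE 0.0714, adjusted p = 0.015). MRPS23 was nearly equal within each group, and MRPL24 varied more within P4P6. MRPS18C, of the same ribosome, differed by -0.34 (adjusted p = 0.0248). Of complex I, which takes electrons from NADH, NDUFA6 was at 45.3 and 42.5 FPKM with P4P6 and 59.0 and 54.8 with TOP1, a difference of -0.37 (SE 0.0678, adjusted p = 0.0111), and NDUFB2 at 171 and 154 FPKM with P4P6 and 213 and 202 with TOP1, a difference of -0.36 (SE 0.064, adjusted p = 0.0107). NDUFS5 and NDUFA7 differed by -0.32 (adjusted p = 0.0105) and -0.32 (adjusted p = 0.0133). Of ATP synthase, ATP5H was at 207 and 212 FPKM with P4P6 and 254 and 266 with TOP1, a difference of -0.31 (SE 0.052, adjusted p = 0.0101), and ATP5F1 at 156 and 159 FPKM with P4P6 and 190.4 and 193 with TOP1, a difference of -0.29 (SE 0.0457, adjusted p = 0.0101). The cytochrome oxidase subunits COX7A2 and COX6C differed by -0.31 (adjusted p = 0.0101) and -0.29 (adjusted p = 0.0108). All 12 genes were lower in both P4P6 libraries than in both TOP1 libraries. Of the 12, the call was lost for 8 without TOP1 replicate 0, 3 without TOP1 replicate 1 and 3 without P4P6 replicate 1 (adjusted p up to 0.145), and for 9 with the length and GC trends removed.

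Proteasome subunits followed the same direction, with 16 of 27 (59.3%) lower and 0 higher (median -0.20), against 11.4% and 8.61% of all features. After quantile normalization 2 were lower (median -0.075). Lower proteasome calls numbered 15 without P4P6 replicate 0, 13 without P4P6 replicate 1, 4 without TOP1 replicate 0 and 8 without TOP1 replicate 1, and 3 with the length and GC trends removed (median -0.10). PSMB7, a catalytic subunit, was at 182 and 174 FPKM with P4P6 and 217 and 219 with TOP1, a difference of -0.29 (SE 0.0463, adjusted p = 0.0101). PSMB4, of the same core particle, was at 314 and 307 FPKM with P4P6 and 372 and 382 with TOP1, a difference of -0.28 (SE 0.0438, adjusted p = 0.0101). PSMC3, an ATPase of the cap, differed by -0.30 (adjusted p = 0.0111), and PSMD4, a ubiquitin receptor of the cap, by -0.29 (adjusted p = 0.0111). Of 23 chaperone genes, 5 (21.7%) were lower and 0 higher, with a median of -0.12 that was 0.017 after quantile normalization. Lower chaperone calls were 2 without P4P6 replicate 0, 8 without P4P6 replicate 1, 0 without TOP1 replicate 0 and 1 without TOP1 replicate 1, and 2 without any 1 CasVP or sgRNA library. With the length and GC trends removed there were 0 (median -0.0025). The chaperonin subunits HSPD1, of mitochondria, and CCT2, of the cytosol, were at 372 and 388 FPKM with P4P6 and 466 and 447 with TOP1 and at 209 and 207 FPKM with P4P6 and 249 and 242 with TOP1. They differed by -0.26 (adjusted p = 0.018) and -0.24 (adjusted p = 0.0127), with no overlap. Of the 6 genes with values, the call was lost for 3 without TOP1 replicate 0 and 3 without TOP1 replicate 1 (adjusted p up to 0.0988), 5 lost it after quantile normalization and 4 with the length and GC trends removed.

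Cell cycle lists held calls in both directions. Of 30 replication genes, 9 (30%) were lower and 2 (6.67%) higher, against 11.4% and 8.61% of all features. After quantile normalization 1 was lower and 4 were higher. Without TOP1 replicate 0 there was 1 lower replication gene, and without P4P6 replicate 0 there were 19, with 4 without P4P6 replicate 1 and 4 without TOP1 replicate 1, and 1 with the length and GC trends removed. PCNA, the sliding clamp of DNA polymerases, was at 394 and 370.2 FPKM with P4P6 and 475 and 472 with TOP1, a difference of -0.31 (SE 0.0534, adjusted p = 0.0101), and RRM1, of ribonucleotide reductase, at 121 and 113 FPKM with P4P6 and 146 and 139 with TOP1, a difference of -0.29 (SE 0.0578, adjusted p = 0.013). POLD1, the catalytic subunit of DNA polymerase delta, was instead higher, at 43.0 and 42.5 FPKM with P4P6 and 37.7 and 32.1 with TOP1, a difference of 0.29 (SE 0.0704, adjusted p = 0.0211). Of 29 genes of G2 and mitosis, 8 (27.6%) were lower and 2 (6.9%) higher, against 1 and 4 after quantile normalization. The lower count of that list was 0 without TOP1 replicate 0, 3 without TOP1 replicate 1 and 5 without P4P6 replicate 0 or any 1 CasVP or sgRNA library, and 0 with the trends removed. CKS2, a binding partner of cyclin-dependent kinases, was at 189.8 and 199.9 FPKM with P4P6 and 242 and 229 with TOP1 (-0.27, adjusted p = 0.0108), and KIF23, a kinesin of cytokinesis, at 32.3 and 30.5 FPKM with P4P6 and 38.8 and 37.8 with TOP1 (-0.28, adjusted p = 0.0105). The phosphatase CDC25B was higher, at 20.4 and 21.3 FPKM with P4P6 and 16.4 and 17.4 with TOP1 (0.29, adjusted p = 0.0111). For none of these 6 genes did P4P6 and TOP1 libraries overlap. Their call was lost for 5 without TOP1 replicate 0, 1 without TOP1 replicate 1 and 1 without P4P6 replicate 1 (adjusted p up to 0.113), and for all 6 with the length and GC trends removed.

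Splicing factors were likewise mixed, with 5 of 18 (27.8%) lower and 1 (5.56%) higher, against 11.4% and 8.61% of all features. After quantile normalization 0 were lower and 5 higher. Single libraries left out gave lower splicing counts of 3 without P4P6 replicate 0, 4 without P4P6 replicate 1, 0 without TOP1 replicate 0 and 1 without TOP1 replicate 1, and 2 with either CasVP library left out and 3 with either sgRNA library left out. With the length and GC trends removed 0 were lower. SRRM2, a scaffold protein of splicing speckles, was at 115 and 120.2 FPKM with P4P6 and 86.8 and 88.0 with TOP1, a difference of 0.43 (SE 0.0588, adjusted p = 0.0101). HNRNPA1, an RNA-binding protein that represses exons, was at 999 and 955 FPKM with P4P6 and 1224 and 1172 with TOP1, a difference of -0.29 (SE 0.0702, adjusted p = 0.0195). TRA2B, which promotes exon inclusion, was at 57.2 and 50.4 FPKM with P4P6 and 69.3 and 59.1 with TOP1, a difference of -0.25 (SE 0.0783, adjusted p = 0.0488). P4P6 was thus above TOP1 for the first and below it for the others, with no overlap. With the length and GC trends removed SRRM2 differed by 0.25 (limma adjusted p = 0.0521), and the calls of SRRM2, HNRNPA1 and TRA2B were lost. Of HNRNPA1 and TRA2B, the call was lost for 2 without TOP1 replicate 0, 1 without TOP1 replicate 1 and 2 without P4P6 replicate 1 (adjusted p up to 0.293), while SRRM2 kept it in these fits.

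In the list of the integrated stress and unfolded protein responses, 6 of 25 members were lower, against 11.4% of all features, and 0 higher (median -0.075), and 0 were lower after quantile normalization. Lower calls in it numbered 7 without P4P6 replicate 0, 3 without P4P6 replicate 1, 0 without TOP1 replicate 0 and 2 without TOP1 replicate 1, and 1 with the length and GC trends removed. ATF4, the transcription factor of the integrated stress response, was at 688 and 689 FPKM with P4P6 and 847 and 827 with TOP1, a difference of -0.28 (SE 0.0552, adjusted p = 0.0126). Its target ASNS, asparagine synthetase, was at 367 and 306 FPKM with P4P6 and 434 and 405 with TOP1 (-0.32, adjusted p = 0.0222), and XBP1, a transcription factor of the unfolded protein response, at 189 and 176 FPKM with P4P6 and 227 and 220.5 with TOP1 (-0.29, adjusted p = 0.0126). All 3 were lower in each P4P6 library, whereas INHBE, another member of the list, was at 8.89 and 9.01 FPKM with P4P6 and 6.54 and 8.10 with TOP1 and did not pass (difference 0.26, adjusted p = 0.153). ATF4, ASNS and XBP1 lost the call after quantile normalization, and 2 of these 3 lost it with the length and GC trends removed. Of the 3 genes, the call was lost for 3 without TOP1 replicate 0, 1 without TOP1 replicate 1 and 1 without P4P6 replicate 1 (adjusted p up to 0.122).

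The level of p53 targets differed between libraries of the same group. The list deviated by 0.09 and -0.22 in the P4P6 libraries and 0.13 and -0.028 in the TOP1 libraries, and by -0.081 and -0.16 in the CasVP, 0.14 and -0.014 in the INT and 0.13 and 0.0088 in the sgRNA libraries. In all 5 groups the library of index 0 was above that of index 1. The share of members called lower was 7.69%, against 11.4% of all features, and the share called higher was 0, against 8.61%. Of 26 tested members 2 were lower and 0 higher (median -0.092), with 9 lower without P4P6 replicate 0 (median -0.26) and 1 lower and 1 higher without P4P6 replicate 1 (median 0.064). No member was called with either TOP1 library left out. FDXR, ferredoxin reductase, was at 18.1 and 10.1 FPKM with P4P6 and 19.8 and 14.4 with TOP1. RPS27L, a ribosomal protein paralogue, was at 49.8 and 37.6 FPKM with P4P6 and 59.9 and 51.1 with TOP1, and TRIAP1, a small mitochondrial protein, at 62.8 and 53.5 FPKM with P4P6 and 75.6 and 66.2 with TOP1. In each, P4P6 replicate 1 was lowest, and none passed, with adjusted p of 0.353, 0.0978 and 0.0825.

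Lipid and sugar metabolism gave small counts in both directions, where 8.61% of all features were higher and 11.4% lower. Of 15 fatty acid genes, 3 (20%) were higher, namely FASN, SREBF1 and SLC25A1, and 1 (6.67%), ELOVL6, was lower. Fatty acid counts were 4 higher and 0 lower without P4P6 replicate 0, 2 higher and 0 lower without P4P6 replicate 1, 2 higher and 0 lower without TOP1 replicate 0 and 1 higher and 0 lower without TOP1 replicate 1, and 1 was higher with either INT library left out. SREBF1, the transcription factor of lipid synthesis, was at 15.6 and 16.2 FPKM with P4P6 and 12.9 and 13.5 with TOP1 (0.25, adjusted p = 0.046), and the citrate carrier SLC25A1 at 40.3 and 40.3 FPKM with P4P6 and 37.3 and 32.1 with TOP1 (0.22, adjusted p = 0.0378). Of 23 sterol genes, 2 (8.7%) were higher and 3 (13%) lower (median -0.015), close to the shares of all features. The sterol counts were 4 higher and 1 lower without P4P6 replicate 0 (median 0.02), 0 higher and 2 lower without P4P6 replicate 1 and 0 higher and 0 lower with either TOP1 library left out, and 1 was lower with either CasVP library left out. The enzyme LSS, which closes the sterol rings, was at 24.5 and 29.2 FPKM with P4P6 and 20.9 and 22.7 with TOP1 (0.28, adjusted p = 0.0375). The earlier enzymes HMGCS1, at 23.7 and 25.98 FPKM with P4P6 and 30.7 and 28.4 with TOP1, and IDI1, at 43.8 and 49.0 FPKM with P4P6 and 55.1 and 55.2 with TOP1, differed by -0.24 (adjusted p = 0.0352) and -0.25 (adjusted p = 0.0178). Of 25 hypoxia and glycolysis genes 1 (4%) was higher and 3 (12%) lower, and after quantile normalization 3 were higher and 0 lower. The counts were 2 higher and 4 lower without P4P6 replicate 0, 1 higher and 7 lower without P4P6 replicate 1, where the median was -0.016 and not 0.032, and 0 higher and 0 lower with either TOP1 library left out. GAPDH was at 2009.6 and 1897 FPKM with P4P6 and 2354 and 2385 with TOP1, a difference of -0.28 (adjusted p = 0.0127) that was 0.035 after quantile normalization. The other glycolytic enzymes called lower, ENO1 and LDHB, differed by -0.25 (adjusted p = 0.0128) and -0.25 (adjusted p = 0.0179). After quantile normalization 7 of the 8 genes given here with values lost the call, and 6 lost it with the length and GC trends removed. Of the 8 genes with values, the call was lost for 7 without TOP1 replicate 0, 8 without TOP1 replicate 1, 3 without P4P6 replicate 0 and 3 without P4P6 replicate 1 (adjusted p up to 0.215).

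Interferon and NF-kappaB lists, which respond to foreign nucleic acids among other signals, had few tested members. Of 13 tested interferon-stimulated and sensor genes, 2 were higher, and of 8 NF-kappaB targets 1 was higher and 1 lower, against 8.61% of all features higher and 11.4% lower. Interferon genes called higher numbered 1 without P4P6 replicate 0, 1 without P4P6 replicate 1, 0 without TOP1 replicate 0 and 1 without TOP1 replicate 1, and NF-kappaB counts were 1 higher and 1 lower without P4P6 replicate 0, 0 higher and 0 lower without P4P6 replicate 1, 0 higher and 1 lower without TOP1 replicate 0 and 0 higher and 0 lower without TOP1 replicate 1. IFI27, an interferon-induced protein, was at 3.20 and 3.09 FPKM with P4P6 and 1.24 and 0.979 with TOP1, a difference of 0.97 (SE 0.279, adjusted p = 0.0362), but reached 2.32 and 2.03 FPKM in single INT and CasVP libraries. STAT2, which carries the interferon signal, was at 9.19 and 9.83 FPKM with P4P6 and 7.18 and 7.70 with TOP1, a difference of 0.32 (SE 0.0615, adjusted p = 0.0122). NFKB2 was higher, at 10.1 and 11.5 FPKM with P4P6 and 8.36 and 9.07 with TOP1 (0.28, adjusted p = 0.0371), and IL8, a chemokine, was lower, at 1.196 and 0.701 FPKM with P4P6 and 1.59 and 2.45 with TOP1 (-0.63, adjusted p = 0.0307). Of IFI27, STAT2, NFKB2 and IL8, 3 lost the call with the length and GC trends removed and 2 after quantile normalization. The groups did not overlap for these 4 genes, and the call was lost for 3 without TOP1 replicate 0, 3 without TOP1 replicate 1, 1 without P4P6 replicate 0 and 3 without P4P6 replicate 1 (adjusted p up to 0.187).

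The largest differences outside these lists were in single genes. AFF1, a scaffold of transcription elongation complexes, was at 14.1 and 14.9 FPKM with P4P6 and 6.70 and 6.42 with TOP1, a difference of 1.04 (SE 0.283, adjusted p = 0.0308). It was also at 18.6 in CasVP replicate 0 and at 7.29 in CasVP replicate 1, so that the high level was not limited to P4P6. EME2, a subunit of a structure-specific nuclease, was at 5.25 and 6.91 FPKM with P4P6 and 4.51 and 2.35 with TOP1, a difference of 0.71 (SE 0.208, adjusted p = 0.0388). ATP1B2, a subunit of the sodium pump, was at 1.77 and 2.94 FPKM with P4P6 and 1.06 and 1.15 with TOP1, and AMH, anti-Muellerian hormone, at 5.94 and 7.15 FPKM with P4P6 and 4.54 and 3.26 with TOP1. These genes had no overlap, yet varied within groups by as much as 4.51 against 2.35 FPKM for EME2 with TOP1. RNF208, CTXN1, LRFN3, ZDHHC8, ZNF579 and RAB3A were higher by 0.57 to 0.62.

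In the other direction, RBKS, ribokinase, was at 3.40 and 1.64 FPKM with P4P6 and 4.50 and 4.05 with TOP1, a difference of -0.63 (SE 0.18, adjusted p = 0.0364). ODC1, the first enzyme of polyamine synthesis, was at 171 and 124 FPKM with P4P6 and 216 and 197 with TOP1, a difference of -0.50 (SE 0.14, adjusted p = 0.0318). P4P6 replicate 1 was the lowest library in both. ACYP1, an acylphosphatase, was at 22.8 and 20.4 FPKM with P4P6 and 32.7 and 31.1 with TOP1, a difference of -0.54 (SE 0.103, adjusted p = 0.0114), and CMC1, an assembly factor of cytochrome oxidase, at 61.4 and 58.2 FPKM with P4P6 and 87.4 and 76.6 with TOP1, a difference of -0.45 (SE 0.0634, adjusted p = 0.0101). MT1F, a metallothionein, was at 2.42 and 1.95 FPKM with P4P6 and 4.90 and 2.89 with TOP1, and ADCYAP1R1, a neuropeptide receptor, at 1.71 and 1.54 FPKM with P4P6 and 2.70 and 3.07 with TOP1. None of these genes overlapped between groups. KRTAP19-1, C1orf112, C9orf46, ANXA1, C10orf125, CALCB, SLC16A14 and C11orf1 differed by -0.62 to -0.43. Of the 24 genes of high and low difference in this and the preceding paragraph, the call was lost for 18 without TOP1 replicate 0, 17 without TOP1 replicate 1, 2 without P4P6 replicate 0 and 19 without P4P6 replicate 1 (adjusted p up to 0.239), and 22 lost it with the length and GC trends removed.

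Among called features, both P4P6 libraries lay beyond the 3 other groups more often than both TOP1 libraries did. Of the 996 features called higher, 741 had both P4P6 libraries above all 6 libraries of the CasVP, sgRNA and INT groups, and 327 had both TOP1 libraries below all 6. Of the 1322 called lower, 876 had both P4P6 libraries below and 320 both TOP1 libraries above. The CasVP mean, without a guide, lay between the P4P6 and TOP1 means for 928 of the higher and 1227 of the lower features, and all 3 other means lay between them for 813 and 983. P4P6 replicate 1 was further from TOP1 than P4P6 replicate 0 for 610 of the higher and 913 of the lower features. As these features were chosen for a difference between P4P6 and TOP1, the counts are a description. The same counts were not made over all features tested, so they have no background share beside them. The P4P6 libraries also differed more from each other (SD of the log2 difference 0.188) than the TOP1 libraries did (0.138).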

How the data were processed

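The authors deposited FPKM values in 1 table, a column for each library. The submitters' processing notes name Cuffdiff 2.2.1, TopHat2 2.0.13 and the build hg19. Which annotation and which scaling were used is not given in the sources used here. Libraries were prepared from polyadenylated RNA, per the labels. Read counts were not used here, so precision was judged from the spread between libraries. Estimated depth rests on 2463 rarely detected features (mean FPKM up to 0.05), of whose values 73.8% were whole multiples of the smallest step (tolerance 0.05).

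A pseudocount of 1 was added, and log2 values of the 11574 features were fitted with limma 3.58.1 (R 4.3.3) over all 10 libraries, using an intensity trend and 1 mean per group, which leaves 5 residual degrees of freedom. Two-sided p-values were adjusted after Benjamini and Hochberg (Benjamini-Hochberg, threshold 0.05), and features are called higher or lower where they passed. A log2 difference with a pseudocount understates the change of low genes. Of the tested features 231 share a name and 509 name several genes, and 945 unnamed features (2.31 to 2.47% of FPKM) were left out.

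The members, the 26 gene lists (24 with at least 5 tested members) and the tests were chosen with earlier results of these data known. Genes were named by a rule: the constructs, up to 15 each way with the largest difference among called genes whose groups do not overlap, the members of each list that differed most (at most 4), the gene TOP1, and the 6 endogenous genes with the smallest p. The rule gives 128 features, and the text names most of them; some genes are not reported here. EP300, ARID1A, SMARCA4, EIF4G1, ID4, ELOVL6 and the genes said to be so chosen were named after their values were seen.

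Transcript length and GC content come from the longest GENCODE 29 transcript, matched by symbol for 95.1% of features; promoters come from RefSeq (GRCh38.p14). Alternatives were other pseudocounts, filters, rescalings and fits, a replicate block, and each P4P6 or TOP1 library left out. Removal of GC trends and leaving out other libraries were added after seeing the data. With 1 library left in a group, that library is assumed to vary like the other groups. Trends were removed per library by loess (span 0.3), and genes with no matched transcript kept their values.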

Additional observations from a re-analysis of the deposited data

How the results depend on the processing

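The number of calls, 2318 (996 higher and 1322 lower), was within 1.5 times of that value under median-of-ratios rescaling, without a filter or with a limit of 5 FPKM, with 0.1 as pseudocount, without a trend, with the length trend removed, with the replicate block and with each CasVP, sgRNA or INT library left out. It was 1182 after quantile normalization (415 lower), 1199 with library weights (490 higher, 709 lower), 1 in the fit to P4P6 and TOP1 libraries alone (1 higher, 0 lower), 1231 with the GC trend removed (488 higher, 743 lower) and 273 with both trends removed (110 higher, 163 lower). Leaving out single libraries gave 359 to 2760 calls, 252 to 1077 higher and 107 to 1683 lower. Median-of-ratios rescaling gave 1130 higher and 1119 lower (50.2% higher), the length-trend fit 948 each way, and the fit with no trend 49.0% higher; for the fits without TOP1 replicate 0 the share was 70.2%. With the replicate block there were 3235 calls; deviations of libraries with the same index correlated at -0.036 to 0.42 between groups, 0.22 between P4P6 and TOP1, and above 0.1 in 8 of 10 pairs of groups. Since not every pair was above 0.1 and no label ties libraries by index, the index was not taken to pair them. With the block, lower calls were 18 and not 9 among replication genes, 6 and not 2 among p53 targets, 5 and not 3 among hypoxia and glycolysis genes and 3 and not 1 among neuron-type genes, and higher calls 5 and not 3 among fatty acid genes. Of the 104 features followed, the number that lost the call with no change of sign was 70 with both trends removed, 45 after quantile normalization, 60 without TOP1 replicate 0, 45 without TOP1 replicate 1 and 40 without P4P6 replicate 1. The sign changed for CKS2 (0.055) and HSPG2 (-0.032) with both trends removed and for GAPDH after quantile normalization (0.035). Leaving out single libraries gave -0.11 to 2.52 for ELOVL5 and -0.69 to 0.093 for FDXR, the sign changing without P4P6 replicate 0 and P4P6 replicate 1, respectively. For the gene TOP1 it changed after quantile normalization (0.047), without P4P6 replicate 0 (0.056) and TOP1 replicate 1 (0.013; range over single libraries -0.097 to 0.056), with the GC trend removed (0.057) and with both removed (0.063). The fit without P4P6 or TOP1 libraries has 1 library in that group; the cause of these changes was not tested.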

Other observations

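Of 13 tested genes of the kidney and adrenal lineage of HEK293 cells, 1 was called higher with P4P6 and 0 lower (median 0.028), with 3 higher and 2 lower without P4P6 replicate 0 (median -0.011), 0 higher and 0 lower without P4P6 replicate 1 or TOP1 replicate 0 and 0 higher and 1 lower without TOP1 replicate 1. The gene called in the fit to all libraries was SALL2, a zinc finger transcription factor, at 14.1 and 15 FPKM with P4P6 and 12.2 and 12.7 with TOP1, a difference of 0.21 (SE 0.0539, adjusted p = 0.0241), while EYA1, a developmental transcriptional coactivator, was at 8.89 and 6.14 FPKM with P4P6 and 10.6 and 9.34 with TOP1 and did not pass (-0.38, adjusted p = 0.0586). Of 10 neuron-type genes, 1 was lower and 0 higher, with 1 higher and 0 lower without P4P6 replicate 0, 0 higher and 2 lower without P4P6 replicate 1, 1 higher and 0 lower without TOP1 replicate 0 and 0 higher and 0 lower without TOP1 replicate 1. The 1 lower neuron-type gene is 10% of its list and the 1 higher lineage gene 7.69%, against 11.4% lower and 8.61% higher over all features. PCSK1N, an inhibitor of a prohormone convertase, was at 8.80 and 12.0 FPKM with P4P6 and 10.3 and 4.20 with TOP1. The TOP1 libraries thus differed from each other by more than the groups did (difference 0.56, adjusted p = 0.218).

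Of 18 immediate early genes, 0 were higher and 0 lower in limma with Benjamini-Hochberg adjustment, with 3 at an unadjusted p under 0.05 and a lowest adjusted p of 0.0867. Without P4P6 replicate 0, and likewise without P4P6 replicate 1, 1 was called higher and 1 lower. FOS, a subunit of the AP-1 transcription factor, was at 2.85 and 3.99 FPKM with P4P6 and 4.68 and 4.20 with TOP1 and its partner JUND at 22.6 and 29.3 FPKM with P4P6 and 22.2 and 17.0 with TOP1. Neither pair of groups overlapped, and the differences of -0.31 (adjusted p = 0.114) and 0.39 (adjusted p = 0.0867) did not pass. Of 16 replication-dependent histone genes, whose mRNAs mostly lack a poly(A) tail, 1 (6.25%) was lower, against 11.4% of all features. It was HIST1H2BJ, at 5.14 and 5.09 FPKM with P4P6 and 6.17 and 6.497 with TOP1 (-0.26, adjusted p = 0.0444). HIST1H2BJ and SALL2 both lost the call with the length and GC trends removed. Of SALL2 and HIST1H2BJ, the call was lost for 2 without TOP1 replicate 0, 2 without TOP1 replicate 1, 1 without P4P6 replicate 0 and 2 without P4P6 replicate 1 (adjusted p up to 0.174).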
